A study of Mus musculus with 42 samples.

Results

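The mRNAs described here are transcribed inside mitochondria from the mitochondrial genome. They were chosen by symbol, as the rows of both deposited count tables named COX1, COX2, COX3, ATP6, ATP8, CYTB, ND1, ND2, ND4 and ND5, and are taken as RNAs out of the reach of a cytoplasmic protein. All 10 were found among the 18825 rows of experiment 1 and the 19866 rows of experiment 2, and all 10 passed the filter on low counts. The study sequenced total RNA from cell lysates (input) and from magnetic beads that bind the HA tag (immunoprecipitate, IP) of mouse embryonic stem cells. Its question was which RNAs travel with Tnrc6a, a GW182-family protein that links Argonaute proteins to mRNA repression, and how far Trim71 and Ago2 are needed.

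The groups share one background, namely 129S6/SvEvTac stem cells with the reporter yGlob [GFP_5xT71BS] and a stably transfected FLAG-Cas9::T2A::Blasticidin. Untagged cells carry nothing more, and because they lack the tag their IP libraries measure what the beads hold by themselves. Tagged cells carry HA-AVI-Tnrc6a. Cells labelled Trim71KO carry the tag and are labelled Trim71-/-, and cells labelled Ago2KO carry the tag and are labelled Ago2-/-. Experiment 1 holds input and IP of untagged, tagged and Trim71KO cells, and experiment 2 adds input and IP of Ago2KO cells. Each of the 14 groups has 3 libraries from dishes grown in triplicate. The sources used here do not give how many clones a knockout label covers, so p-values measure the spread between dishes.

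The mitochondrial genome codes for core subunits of the respiratory chain and of ATP synthase, while most of their partner subunits are made from nuclear genes and imported. Its strands are copied into long precursors that are cut, mostly at the tRNAs between genes, into the mature mRNAs. Those mRNAs are translated by the ribosomes of the organelle and do not pass through the cytoplasm, where Argonaute and GW182 proteins act. Once cells are lysed, the contents of the compartments can mix.

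The genes lie close together, and several share bases. On the mitochondrial chromosome of GRCm38.p6, ND1 spans 2751 to 3707, ND2 3914 to 4951, COX1 5328 to 6872 and COX2 7013 to 7696. ATP8 (7766 to 7969) overlaps the start of ATP6 (7927 to 8607) by 43 bases, and ATP6 shares 1 base with COX3 (8607 to 9390). ND4 runs from 10167 to 11544 and ND5 from 11742 to 13565, and ND5 overlaps ND6, a gene of the opposite strand, by 14 bases. CYTB spans 14145 to 15288. Each gene is a single exon without introns. How reads in these overlaps were assigned is not given in the sources used here.

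Some levels are uncertain because other rows hold nearly the same counts. Summed over the libraries of an experiment, the pseudogene Gm10925, an ATP6 copy on chromosome 1 (24613971 to 24614651), held 0.997 of the ATP6 count in both experiments. The unnamed row ENSMUSG00000102070 held 0.994 and 0.996 of the COX2 count, and ENSMUSG00000101111 held 1.001 of the COX3 count in each experiment. For COX1 the closest row, ENSMUSG00000101249, held 0.179 and 0.164 of its count. Whether reads were split between such copies was not stated, so the levels of ATP6, COX2 and COX3 are open to that split. Adding the matching rows to these genes left the count of called members within 1.5 times in every comparison within an experiment.

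Total counts ran from 12587257 to 23657840 per library in experiment 1 and from 16296447 to 21026552 in experiment 2. Of 10 embryonic stem cell markers, 9 and 10 were in the tables, and their summed level lay between 6436 and 9279 CPM (counts scaled to library size) in every library. Tnrc6a mRNA rose in IP over input by 8.20 on the log2 scale (SE 0.23) in tagged cells of experiment 1 and 7.69 (SE 0.26) in experiment 2. Ago2 mRNA fell in Ago2KO input by 1.12 (SE 0.10, edgeR adjusted p 2.52e-08), whereas Trim71 mRNA was not lower in Trim71KO input (0.23, SE 0.09, and 0.42, SE 0.08). The Trim71KO label is thus not checked by RNA level, and Trim71KO stands for the libraries that carry that label.

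Together the 10 mRNAs took 1.07% ± 0.0278 (SD, n = 3) of counts in untagged input of experiment 1, 1.90% ± 0.126 in tagged input and 1.49% ± 0.0699 in Trim71KO input. In IP they took less, at 0.571% ± 0.0219, 0.418% ± 0.0772 and 0.279% ± 0.0429 in the same order. The 3 IP groups of experiment 1 lay below every input library of that experiment. In experiment 2 the inputs held 1.42% ± 0.184 (untagged), 1.63% ± 0.143 (tagged), 1.78% ± 0.257 (Trim71KO) and 1.42% ± 0.165 (Ago2KO). Untagged IP stayed near its input there, at 1.28% ± 0.0556, while tagged IP held 0.759% ± 0.196, Trim71KO IP 0.847% ± 0.0816 and Ago2KO IP 0.834% ± 0.102. Some IP libraries gave much of their depth to other RNAs. Bcar1 took 9.64% to 12.1% of counts in untagged IP of experiment 1, and without it and Tnrc6a the share of the mitochondrial mRNAs there was 0.639%. The untagged IP libraries of experiment 2 were uneven. Bcar1 took 2.76% and 2.06% of counts in replicates 1 and 3. In replicate 2 the top row outside the 10 was Eef1a1 (1.03%), as in the input libraries.

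**Figure D1:**
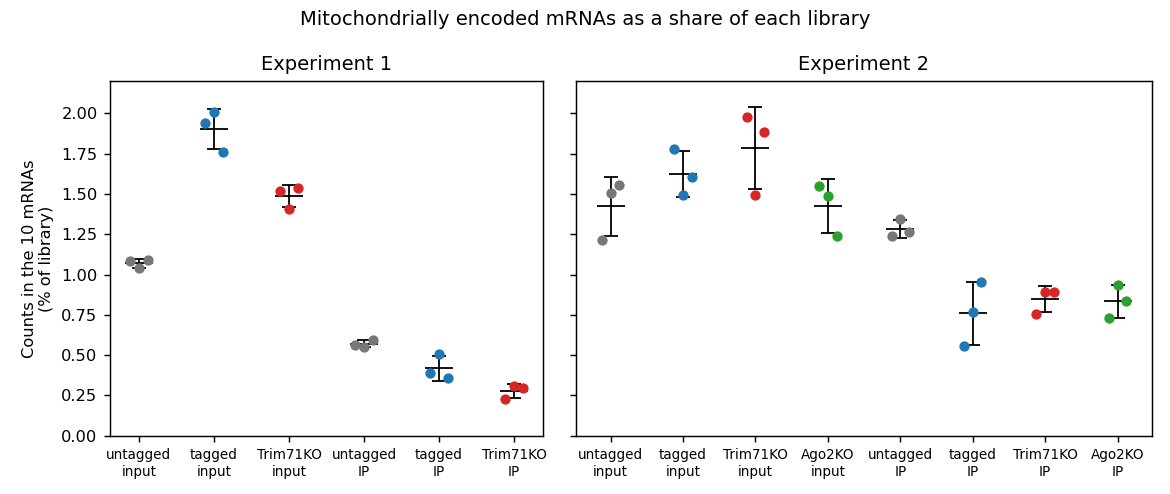
Share of each library's counts (%, vertical axis) held by the 10 mitochondrially encoded mRNAs, by genotype and fraction (horizontal axis), in experiment 1 (left) and experiment 2 (right). Points are libraries, bars are the mean and SD of 3. In experiment 1 tagged input is highest (1.90%) and every IP group is below every input group, and in experiment 2 untagged IP (1.28%) stands above the 3 tagged IP groups.

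Levels between genes were compared per length, on the authors' RPKM scale. COX1, the catalytic core of cytochrome c oxidase (complex IV), had the highest level in each of the 14 groups, for example 2664 ± 83.7 RPKM in untagged input of experiment 1 and 4368 ± 185 RPKM in tagged input of experiment 2. COX3, CYTB, ND1 and ATP6 took ranks 2 to 5 in every group. COX2 held rank 6 or 7. ND4, ND5, ND2 and ATP8 filled the lowest ranks, apart from ND2, which reached rank 6 in 2 IP groups of experiment 1. In tagged input of experiment 2 COX3 followed at 2416 ± 22.8 RPKM, above all libraries of CYTB at 1768 ± 206. The libraries of CYTB overlapped those of ATP6 (1551 ± 127), and ND1 (985 ± 257) overlapped COX2 (921 ± 154). At the low end ATP8 (318 ± 54.6), ND5 (305 ± 69.5) and ND2 (218 ± 43.7 RPKM) overlapped as neighbours. In untagged input of experiment 1 ATP8 was lowest, at 66.6 RPKM (SD 12.04).

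The input libraries show RNA levels before the beads. In experiment 1 all 10 mRNAs were called higher in tagged than in untagged input. A gene is called when its edgeR p-value, adjusted by Benjamini-Hochberg across every gene in the fit, is under 0.05. Among all genes 5.69% were called higher. The median over the 10 was 0.97 on the log2 scale, against -0.00098 over all genes tested. Such a difference in bulk RNA cannot tell fewer cells of a type from less RNA per cell.

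ATP8, a small subunit of ATP synthase, differed most. It stood at 16.4, 12.5 and 11.9 CPM in the untagged input libraries and at 77.4, 59.4 and 72.6 CPM in the tagged ones, a log2 change of 2.35 (SE 0.17, edgeR adjusted p 2.58e-09). No tagged library was below any untagged library. ATP6, the proton channel subunit of ATP synthase, is translated from the same mRNA as ATP8 and rose less, by 1.32 (SE 0.14).

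Among complex I subunits, ND2, a proton-pumping subunit, stood at 114, 113 and 123 CPM in untagged and at 275, 386 and 264 CPM in tagged input (log2 change 1.40, SE 0.17, edgeR adjusted p 1.02e-05). ND1, a subunit of the quinone-binding part, read 1110, 1207 and 1255 CPM in untagged and 2391, 3078 and 2379 CPM in tagged input (1.14, SE 0.12, adjusted p 2.74e-06). The groups do not overlap for either gene, and tagged replicate 2 was the highest for both. The proton-pumping subunits ND4 (0.75, SE 0.16) and ND5 (0.67, SE 0.12) rose less.

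CYTB, the only mitochondrially encoded subunit of complex III, rose by 0.80 (SE 0.19). In complex IV the rises were 1.15 (SE 0.18) for COX3, 0.75 (SE 0.12) for COX1 and 0.64 (SE 0.18) for COX2, the subunit that takes electrons from cytochrome c. The COX2 call (edgeR adjusted p 0.0229) was lost without tagged input replicate 2 or untagged input replicate 1 or 2, with log2 changes of 0.50 to 0.81 when each library was omitted in turn. Nuclear-encoded genes of the same machinery moved little. Of 33 nuclear-encoded respiratory chain partners, 0 were called either way, with a median of 0.19. Of 33 nuclear genes for mitochondrial RNA synthesis and decay, 6 were called higher and 0 lower, where 5.69% and 4.87% of all genes were. The share called higher was above that over all genes. The median of these 33 was 0.19, against -0.00098 over all genes. Among those called were Mterf1a (0.81, SE 0.17) and the tRNA-end processing factor Trmt10c (0.46, SE 0.11).

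Trim71KO input of experiment 1 lay lower again. Against tagged input 7 of the 10 were called lower and 0 higher, where 17.4% of all genes were called lower and the median was -0.78 against -0.01 over all genes. ATP8 stood at 20.9, 17.1 and 18.1 CPM in Trim71KO input, a change of -1.90 from the tagged level (SE 0.16, edgeR adjusted p 1.17e-08). ND2 read 157, 136 and 148 CPM (-1.07, SE 0.17) and ND1 1359, 1197 and 1260 CPM (-1.04, SE 0.12). For these 3 genes no Trim71KO library reached the lowest tagged library.

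ATP6 (-0.94), COX2 (-0.79), COX3 (-0.76) and CYTB (-0.57) also fell. The CYTB call was lost without Trim71KO input replicate 2 or 3, with changes of -0.64 to -0.54 when each library was omitted in turn. The 3 mRNAs not called were COX1 (-0.02, SE 0.12), ND5 (0.09, SE 0.12) and ND4 (-0.37, SE 0.16). COX1 read 7228, 7277 and 6206 CPM in tagged input and 6891, 6427 and 7052 CPM in Trim71KO input, overlapping, against 4186, 3969 and 4202 CPM in untagged input. So COX1 made up 50.8% to 52.3% of the mitochondrial mRNA counts in Trim71KO input and 38.7% to 41.5% in tagged input.

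The nuclear lists are read against the 17.4% of all genes that fell and the 16.5% that rose. Of the 33 mitochondrial RNA factors 14 fell and 2 rose, with Rexo2, an exonuclease for short RNAs, at -0.79 (SE 0.11) and Polrmt, the mitochondrial RNA polymerase, at 0.45 (SE 0.10). Of the 33 respiratory chain partners 4 fell, a share below that over all genes, and 0 rose. The summed level of 8 primitive endoderm markers was 159 to 203 CPM in tagged input and 83.0 to 87.2 CPM in Trim71KO input. That of fibroblast markers, of which 3 of 8 are in the table, was 24.4 to 26.8 and 59.4 to 63.4 CPM. No listed marker in the tables was at or under 3 counts in all libraries of a group. The part of these cell type markers in the mitochondrial result was not tested.

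**Figure D2:**
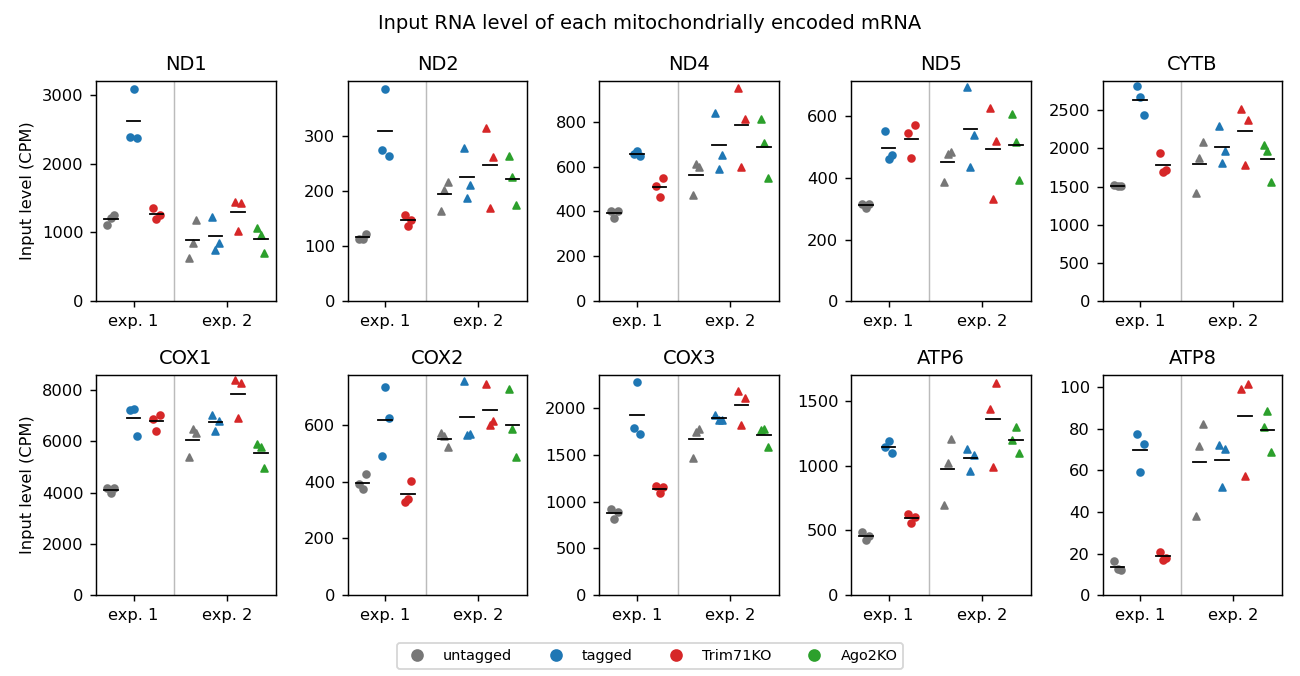
Input level (CPM, vertical axis) of each mitochondrially encoded mRNA in untagged, tagged, Trim71KO and Ago2KO cells. Points are libraries (circles experiment 1, triangles experiment 2) and lines are means of 3. In experiment 1 tagged input lies above untagged input for all 10 mRNAs and above Trim71KO input for 8 of them. COX1 and ND5 overlap between tagged and Trim71KO input. Among all genes of experiment 1, tagged input lies wholly above untagged input for 17.7% and wholly above Trim71KO input for 24.6%.

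In experiment 2 these input differences were not called. Between tagged and untagged input edgeR called 0 of 10, 0 reached an unadjusted p under 0.05 and DESeq2 called 0, where 1.39% of all genes were called either way, and the median was 0.18 against -0.01 over all genes. All 10 values were above 0, as in experiment 1, and this change was not tested between the experiments. ATP8 stood at 38.3, 71.6 and 82.2 CPM in untagged and 72.2, 51.9 and 70.4 CPM in tagged input (0.02, SE 0.23). ND1 read 635, 847 and 1178 CPM in untagged and 1229, 752 and 848 CPM in tagged input. The groups overlap for both genes, and for each member but COX3. Tagged input lay wholly below untagged input for 11.3% of all genes and wholly above for 8.86%. Between Trim71KO and tagged input edgeR and DESeq2 called 0 of 10, and 1 had an unadjusted p under 0.05, where 27.2% of all genes were called either way, with a median of 0.16 against -0.01. The summed primitive endoderm markers, 7 of 8 in this table, were again lower, at 46.9 to 55.4 CPM in Trim71KO against 75.9 to 89.0 CPM in tagged input.

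When only the libraries of those groups were fitted that count was 4. It was 1, ND1, without tagged input replicate 1 or without Trim71KO input replicate 2. Between Ago2KO and tagged input edgeR and DESeq2 called 0 of 10, and 1 had an unadjusted p under 0.05 (6.96% of all genes called either way), with a median of -0.06 against 0.01 over all genes. That count was 3 when only those groups were fitted. Set against Ago2KO, Trim71KO input had 2 members called higher, COX1 (0.50, SE 0.12, edgeR adjusted p 0.00172) and ND1 (0.51, SE 0.19, adjusted p 0.0464), where 13.2% of all genes were called higher. COX1 read 8382, 6912 and 8297 CPM in Trim71KO and 5915, 5771 and 4966 CPM in Ago2KO input, with no overlap. COX3 was not called but likewise did not overlap, where Trim71KO input lay wholly above for 19.9% of all genes. Under 7 of 8 alternative settings COX3 was called higher, with values of 0.22 to 0.30 over the 8. The ND1 call was lost without Ago2KO input replicate 2 or 3 or Trim71KO input replicate 1 or 3, each of which left 1 call, and also with DESeq2 and with library size alone.

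The input difference between Trim71KO and tagged cells was itself compared between experiments in a joint fit of the 18620 rows that both tables hold. It was called more negative in experiment 1 for 7 of the 10 mRNAs, where 12.2% of all genes were called lower, with a median of -0.85 against 0.01 over all genes. The difference was -2.30 (SE 0.31, edgeR adjusted p 1.09e-06) for ATP8, -1.49 (SE 0.24) for ND1, -1.29 (SE 0.26) for ATP6 and -1.20 (SE 0.25) for ND2. COX3 (-0.87), COX2 (-0.84) and CYTB (-0.70, adjusted p 0.0398) were also called, though CYTB was lost with library size alone and on omitting any of 8 of the 12 libraries, with values of -0.83 to -0.60. COX1 (-0.24), ND4 (-0.54) and ND5 (0.27) were not.

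The beads were compared with input in each genotype. In untagged cells of experiment 1, 7 of the 10 were called lower in IP than in input, where 4.9% of all genes were called lower, and the median was -0.76 against -0.03 over all genes. ND1 (-0.02, SE 0.12), ND2 (-0.22, SE 0.17) and ND5 (0.32, SE 0.12) were not called. ND5 read 316, 302 and 315 CPM in untagged input and 359, 413 and 390 CPM in untagged IP, higher in every IP library, as 18.4% of all genes were. Its value was -0.08 when scaled by library size alone, which moved the median of all genes by -0.39. ND5 was called higher in 2 of 8 alternative settings, with DESeq2 and when only untagged IP and input were fitted. COX2 fell most, to 0.437-fold of input. The COX1 call (-0.45, SE 0.12) was lost without untagged IP replicate 1, with values of -0.50 to -0.43 over such fits.

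In tagged cells of experiment 1 the ratios were lower. Here 9 of 10 were called lower, where 33.7% of all genes were called lower, and the median was -2.12 against -0.09. COX3 stood at 1785, 2285 and 1729 CPM in input and 298, 443 and 339 CPM in IP, or 0.186-fold (log2 -2.42, SE 0.19, edgeR adjusted p 4.18e-11). CYTB stood at 2811, 2671 and 2434 CPM in input and 390, 624 and 472 CPM in IP, or 0.188-fold. In both genes the lowest input library was above the highest IP library by a wide margin. Tagged IP lay wholly below its input for 34.7% of all genes. COX2 (0.198-fold), ATP6 (0.218-fold), ATP8 (0.220-fold) and ND4 (0.239-fold) followed, then ND1 (0.305-fold), COX1 (0.320-fold) and ND5 (0.457-fold). ND2 alone was not called, at 0.804-fold (-0.32, SE 0.16, adjusted p 0.095).

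In Trim71KO cells of experiment 1 all 10 were called lower, against 35.2% of all genes, with a median of -2.35 against -0.14. ATP8 was lowest, at 0.150-fold of input, and its IP libraries held 30, 38 and 44 counts. The ND2 call (-0.38, SE 0.17, edgeR adjusted p 0.0495) was lost in 4 of 8 alternative settings (DESeq2, only these groups fitted, RLE size factors, and TMM without mitochondrial rows). It was also lost on omitting any of 5 of the 6 libraries, all but Trim71KO IP replicate 1 (-0.58 to -0.05).

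In experiment 2 untagged IP matched input more closely. With edgeR 0 of 10 were called, 0 had an unadjusted p under 0.05 and DESeq2 called 0. Among all genes 0.728% were called either way. The median of the 10 was -0.10 against -0.01 over all genes. IP and input libraries overlapped for each of the 10. Untagged IP lay wholly below its input for 11.1% of all genes and wholly above for 8.75%. In tagged cells all 10 were called lower, against 15.4% of all genes, with a median of -0.90 against -0.04. There COX2 stood at 756, 564 and 570 CPM in input and 255, 325 and 374 CPM in IP (log2 -0.99, SE 0.13, edgeR adjusted p 5.28e-07). COX1 read 7020, 6413 and 6794 CPM in input and 2986, 3897 and 4863 CPM in IP (-0.78, SE 0.12, adjusted p 3.74e-06). No IP library of tagged cells reached an input library for any of the 10. Among all genes, tagged IP lay wholly below tagged input for 22.1% and wholly above for 26.5%. ATP8 was lowest (-1.13, SE 0.24) and ND2 least changed (-0.42, SE 0.16, adjusted p 0.0397). The ND2 call was lost with DESeq2, and on omitting tagged input replicate 1 or any tagged IP library (-0.54 to -0.23), and that of ND1 (-0.74) without tagged input replicate 1 (-0.88 to -0.49 over such fits).

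Trim71KO and Ago2KO cells had 9 of 10 called lower each, against 22.3% and 8.46% of all genes. The medians were -0.85 and -0.65, against -0.03 and -0.01 over all genes. The member not called was ND2 in Trim71KO cells (-0.07, SE 0.16) and ND1 in Ago2KO cells (-0.44, SE 0.19, edgeR adjusted p 0.0832). In Ago2KO cells ND2 was called (-0.45, SE 0.16), a call lost on omitting any of 5 of the 6 libraries, all but Ago2KO input replicate 3 (-0.59 to -0.31). The calls of ATP8 (-0.84) and ND5 (-0.65) there were lost without Ago2KO IP replicate 1 and Ago2KO input replicate 1 (-0.94 to -0.70 and -0.80 to -0.51 over such fits).

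**Figure D3:**
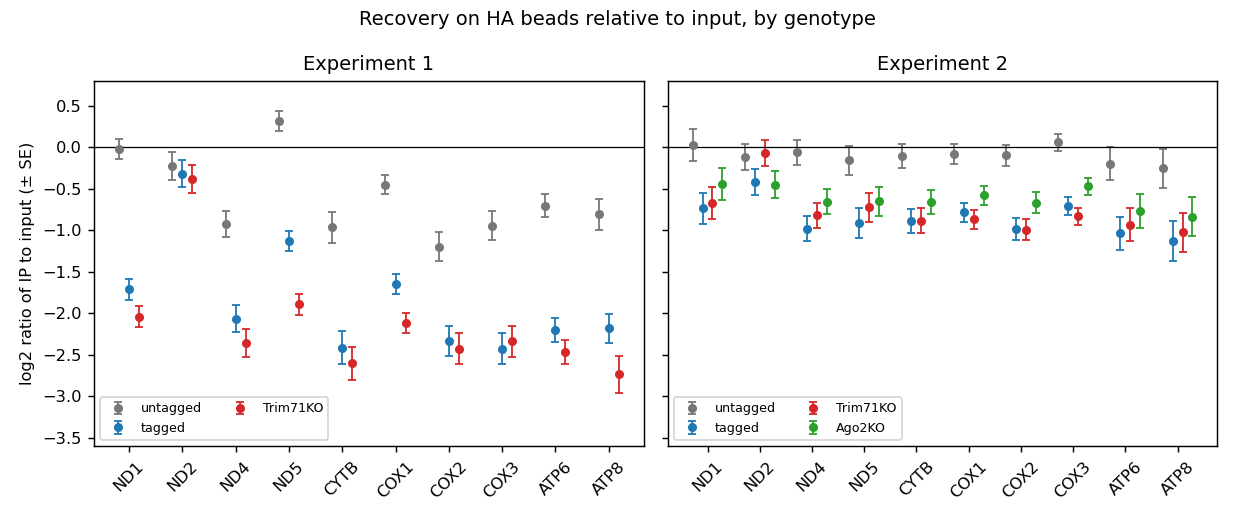
Log2 ratio of IP to input (vertical axis, bars are ± SE) for each mRNA (horizontal axis) by genotype in experiment 1 (left) and experiment 2 (right). Tagged genotypes lie below untagged cells for most mRNAs, with medians of -2.12 and -2.35 in experiment 1 and -0.90, -0.85 and -0.65 in experiment 2. ND2 lies near the untagged ratio in experiment 1.

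The tag-specific difference sets the IP to input ratio of tagged cells against that of untagged cells. In experiment 1, 9 of the 10 were called lower, where 28.8% of all genes were called lower, and the median was -1.41 against -0.10 over all genes. ND1 was lowest (-1.69, SE 0.18, edgeR adjusted p 1.7e-08), with ATP6 (-1.49), COX3 (-1.48), CYTB (-1.45), ND5 (-1.45) and ATP8 (-1.38) close to it. COX1 (-1.20), COX2 (-1.14) and ND4 (-1.14) followed. ND2 stood at -0.09 (SE 0.23, adjusted p 0.76), beside the median of all genes. Experiment 1 kept 9 calls with each library left out in turn.

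In experiment 2 the tag-specific difference was called lower for 8 of 10, where 8.77% of all genes were called lower, and the median was -0.78 against -0.03. The called values lay between -0.92 (ND4, SE 0.21, edgeR adjusted p 0.00146) and -0.71 (COX1, SE 0.16, adjusted p 0.00161). ATP8 (-0.88, SE 0.34, adjusted p 0.0528) and ND2 (-0.30, SE 0.23, adjusted p 0.348) were not called, though ATP8 was called under 6 of 9 alternative settings. The count was 5 without untagged input replicate 1 and 5 without tagged input replicate 1. The calls of ND1 (-1.03 to -0.53 over such fits), ATP6 (-1.02 to -0.64) and ND5 (-0.90 to -0.57) were the ones lost when a library was left out, and that of ND1 was also lost with DESeq2. In the joint fit edgeR and DESeq2 called a difference between experiments for 0 of 10, and 1 had an unadjusted p under 0.05, where 28.5% of all genes were called either way. ND1 had the most negative value there (-0.82, SE 0.34, adjusted p 0.0678) and ND2 was at 0.32 (SE 0.35). ND1 was called without experiment 1 tagged input replicate 3 or tagged IP replicate 2, or without experiment 2 tagged input replicate 1, untagged input replicate 1 or untagged IP replicate 3, and COX3 (-0.60) without experiment 1 tagged IP replicate 2.

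The input and IP parts of the ratio can be read apart. Their changes between tagged and untagged cells were not tested between the experiments. IP levels by themselves were compared after the data had been seen. In experiment 1 tagged IP had 6 members called lower than untagged IP and 2 higher, where 35.6% and 32.4% of all genes were called lower and higher. ND5 fell by 0.78 (SE 0.12), CYTB by 0.65 (SE 0.19) and ND1 by 0.56 (SE 0.12). ND1 stood at 1087, 1212 and 1226 CPM in untagged IP and 719, 927 and 751 CPM in tagged IP, with no overlap. Tagged IP lay wholly below untagged IP for 37.3% of all genes and wholly above for 33.7%. The input level of ND1 was higher in tagged cells (1.14 on the log2 scale), so the ratio changed through both. For ATP8 the IP level rose, from 9.47, 6.62 and 7.38 CPM to 11.0, 20.4 and 14.7 CPM (0.98, SE 0.19, edgeR adjusted p 0.000103), while its input rose 5.11-fold. ATP6 (-0.18, SE 0.14) and COX3 (-0.34, SE 0.18) were not called in IP. Their tag-specific change in experiment 1 came with input levels 2.49-fold and 2.21-fold higher in tagged cells. The calls of COX2 (-0.50) and ND4 (-0.40) depended on single libraries, and that of ND4 was also lost with DESeq2, RLE size factors or TMM without mitochondrial rows. COX2 was lost without tagged IP replicate 1 or 3 or untagged IP replicate 3 (-0.60 to -0.36), ND4 on omitting any library but tagged IP replicate 2 (-0.57 to -0.25), and ATP6 and COX3 were called without tagged IP replicate 2.

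In experiment 2 the IP level was called lower in tagged than in untagged cells for 9 of 10, where 19.9% of all genes were called lower, with a median of -0.61 against -0.03. COX3 stood at 1670, 1807 and 1751 CPM in untagged IP and 907, 1209 and 1360 CPM in tagged IP (log2 -0.59, SE 0.10, edgeR adjusted p 3.85e-05). ATP8 stood at 39.4, 56.1 and 65.7 CPM and 23.9, 31.8 and 33.2 CPM (-0.86, SE 0.24, adjusted p 0.00548). The groups do not overlap for these 9 genes. Tagged IP lay wholly below untagged IP for 23.8% of all genes and wholly above for 27.3%. The ND5 call (-0.45, SE 0.18) was lost with DESeq2 and without tagged IP replicate 1 or 2 or untagged IP replicate 1 or 2 (-0.54 to -0.35), and the ND1 call (-0.68) without untagged IP replicate 3 (-0.78 to -0.48). ND2 stood at 184, 179 and 175 CPM in untagged and 171, 159 and 178 CPM in tagged IP (-0.09, SE 0.16), overlapping. Tagged and untagged input overlapped for 8 of these 9 genes, while COX3 input was higher in every tagged library (0.18, SE 0.10, not called).

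Nuclear genes give a scale for these values. Of the 33 respiratory chain partners, whose mRNAs are cytoplasmic, 32 had a lower tag-specific value in experiment 1 and 0 a higher one, with a median of -1.06. Atp5h, an ATP synthase subunit (-1.42, SE 0.23), and Ndufb8, of complex I (-1.39, SE 0.21), were among the lowest. In experiment 2, 21 were called lower and 0 higher, with a median of -0.28, and the complex IV subunits Cox7c (-0.45, SE 0.10) and Cox4i1 (-0.45, SE 0.10) were lowest. Of the 33 mitochondrial RNA factors 10 were higher and 11 lower in experiment 1, where 28.1% and 28.8% of all genes were. In experiment 2, 7 were higher and 2 lower, where 18.9% and 8.77% of all genes were, so these counts are near the shares over all genes. Tfb2m, a mitochondrial transcription factor, rose by 4.21 (SE 0.18) and 3.01 (SE 0.21), and Ssbp1, which binds single-stranded mitochondrial DNA, fell by 0.87 (SE 0.17) and 0.38 (SE 0.08). The summed level of 7 nuclear-retained RNAs was 449 to 523 CPM in untagged IP and 197 to 212 CPM in tagged IP of experiment 1. In experiment 2 it was 442 to 468 and 306 to 354 CPM.

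The Trim71-dependent difference sets the ratio in Trim71KO cells against that in tagged cells. Both comparisons with tagged cells use the same tagged libraries. In experiment 1 it was called lower for 1 of 10, where 3.47% of all genes were called lower, and the median was -0.28 against -0.04. That gene was ND5 (-0.76, SE 0.17, edgeR adjusted p 0.00996). It stood at 189, 280 and 208 CPM in tagged IP and 128, 145 and 154 CPM in Trim71KO IP, with no overlap. Its input libraries overlapped at 551, 460 and 473 against 546, 465 and 570 CPM. Trim71KO IP lay wholly below tagged IP for 24.3% of all genes and wholly above for 17.4%. The call was lost without tagged input replicate 3, Trim71KO input replicate 1 or 3, or Trim71KO IP replicate 2, leaving a count of 0, with values of -0.87 to -0.57. The next lowest were ATP8 (-0.55, SE 0.29) and COX1 (-0.47, SE 0.16, adjusted p 0.139).

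The IP level by itself was called lower in Trim71KO than in tagged cells of experiment 1 for all 10, against 21.1% of all genes, with a median of -0.82 against -0.07. The count was 6 when only those groups were fitted. ATP8 stood at 11.0, 20.4 and 14.7 CPM in tagged and 2.52, 2.47 and 3.43 CPM in Trim71KO IP (-2.46, SE 0.23, edgeR adjusted p 2.17e-08), a fall that its input shared (-1.90). ND1 stood at 262, 355 and 310 CPM in Trim71KO IP (-1.37, SE 0.13), with its input also lower (-1.04). For ND5 and COX1 the input did not fall.

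In experiment 2 the Trim71-dependent difference had 0 of 10 called by edgeR or DESeq2 and 0 with an unadjusted p under 0.05, where 1.49% of all genes were called either way, with a median of 0.08 against 0.01. Its values ran from -0.12 (COX3, SE 0.15) to 0.35 (ND2, SE 0.23), and their 95% intervals reached from -0.55 to 0.79. ND5 was at 0.19 (SE 0.25), and its difference between experiments (-0.96, SE 0.33, edgeR adjusted p 0.17) was not called, nor was that of the other 9, by edgeR or DESeq2. ND5 was the 1 member with an unadjusted p under 0.05 there, and 0.0967% of all genes were called. IP levels rose for 2 of 10, where 17.1% of all genes were called higher. ND1 stood at 553, 539 and 608 CPM in tagged and 737, 850 and 855 CPM in Trim71KO IP (0.52, SE 0.19, adjusted p 0.0349). ND2 stood at 171, 159 and 178 CPM and 221, 232 and 257 CPM (0.49, SE 0.16, adjusted p 0.021). Neither gene overlapped between the groups, nor did ND4, which was not called. Trim71KO IP lay wholly above tagged IP for 20.0% of all genes and wholly below for 20.3%. The number of members called was 0 without tagged IP replicate 2 or Trim71KO IP replicate 2 or 3. It was 1 on omitting replicate 1 of tagged IP, and 4 on omitting replicate 3 of tagged IP.

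The Ago2-dependent difference had 0 of 10 called by edgeR or DESeq2 and 0 with an unadjusted p under 0.05, where 4.16% of all genes were called either way, with a median of 0.26 against 0.003 over all genes. Of the 10 values 9 were above 0, from 0.21 (COX1, SE 0.16) to 0.32 (COX2, SE 0.18, and ND4, SE 0.21), and ND2 was at -0.03 (SE 0.23). The 95% intervals of single genes reached from -0.47 to 0.95. At an unadjusted p under 0.05, 2675 of 19778 genes passed and 822 after adjustment. In IP alone edgeR and DESeq2 called 0 of 10 against tagged cells and 3 had an unadjusted p under 0.05, where 16.4% of all genes were called either way, and the count was 1 without tagged IP replicate 3 or Ago2KO IP replicate 1. COX1 read 3395, 4100 and 3657 CPM in Ago2KO IP, within the range of the tagged IP libraries. Between Trim71KO and Ago2KO cells edgeR and DESeq2 called 0 of 10 ratios and 1 had an unadjusted p under 0.05, where 11.8% of all genes were called either way, with a median of -0.21 against -0.01. COX3 had the lowest value, at -0.36 (SE 0.15), and ND2 the highest, at 0.38 (SE 0.22).

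**Figure D4:**
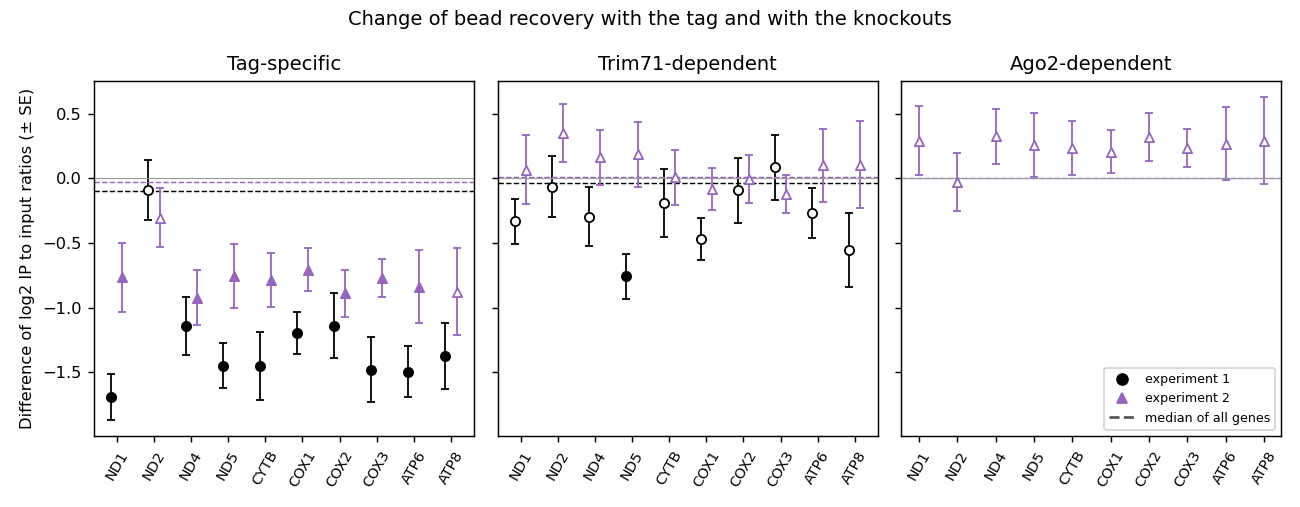
Difference of log2 IP to input ratios (vertical axis, ± SE) between tagged and untagged cells (left), Trim71KO and tagged cells (middle) and Ago2KO and tagged cells (right) for each mRNA (horizontal axis). Circles are experiment 1, triangles experiment 2, filled symbols are called at an adjusted p under 0.05, and dashed lines are the median of all genes. The tag-specific values lie below the dashed lines except for ND2 in experiment 1, and ND5 in experiment 1 is the single call in the knockout panels.

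ND2 stood apart from the others in the IP libraries. As a share of the counts of the 10 mRNAs it was 1.20% to 1.28% in untagged input and 1.47% to 1.59% in untagged IP of experiment 1. In tagged cells it was 1.58% to 2.05% in input and 4.20% to 6.25% in IP. In Trim71KO cells it was 1.10% to 1.16% in input and 2.49% to 6.32% in IP, with replicate 1 highest. Every tagged IP library was above every untagged one and above every input.

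In level, ND2 read 93.5, 99.3 and 107 CPM in untagged IP and 281, 243 and 219 CPM in tagged IP of experiment 1 (log2 1.31, SE 0.17, edgeR adjusted p 3.07e-07), without overlap. Tagged IP lay wholly above untagged IP for 33.7% of all genes there and wholly below for 37.3%. The other 9 members ranged from -0.78 (ND5) to 0.98 (ATP8) in that comparison. The separation was smaller in experiment 2, where ND2 made up 1.37% to 1.48% of these counts in untagged IP, 1.75% to 2.57% in tagged IP, 2.32% to 2.58% in Trim71KO IP and 1.73% to 2.07% in Ago2KO IP. The inputs there lay between 1.18% and 1.82%, and those of tagged and Ago2KO cells reached 1.71% and 1.82%. Across libraries the log2 CPM of ND2 followed the mean of the 10 with r = 0.49 over 18 libraries and r = 0.68 over 24, while the lowest value of any other member was 0.89. These correlations describe libraries that share groups and depth, and the mean includes the member that is set against it.

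**Figure D5:**
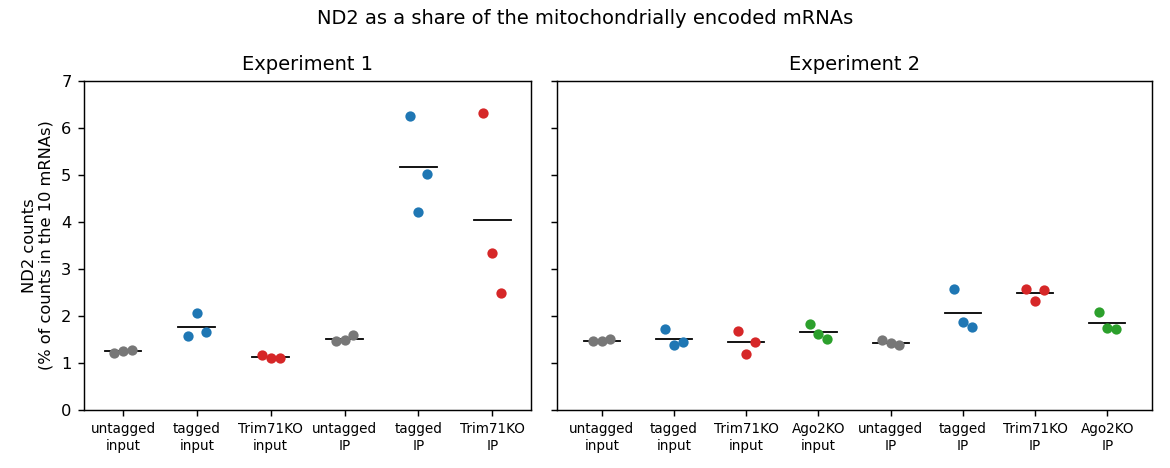
ND2 counts as a percentage of the counts of the 10 mitochondrially encoded mRNAs (vertical axis) by genotype and fraction (horizontal axis) in experiment 1 (left) and experiment 2 (right). Points are libraries and lines are means of 3. Tagged IP of experiment 1 spans 4.20% to 6.25% against 1.58% to 2.05% in tagged input.

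The mitochondrial genes outside the chosen 10 were also in the tables. ND6, the complex I subunit coded on the opposite strand, had tag-specific values of -1.60 (SE 0.24) and -0.70 (SE 0.15) in experiments 1 and 2. ND3 had -1.30 (SE 0.23) and -0.94 (SE 0.30), and ND4L, which shares 7 bases with ND4 and nearly all of its count with the pseudogene Gm10222, had -0.88 (SE 0.31) and -1.14 (SE 0.36). All 3 were called lower in both experiments. The named rows most like the mean profile of the 10 over 18 and 24 libraries were Gm10925 (lower r of the experiments 0.95), ND6 (0.90), Hsd17b12 (0.90), Srsf10 (0.89) and Gm10222 (0.89). The first and last of these hold nearly the counts of ATP6 and ND4L. Over the 11413 rows compared the median of that r was -0.14.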

How the data were processed

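RNA was measured in 42 libraries of mouse embryonic stem cells, prepared with a stranded total RNA kit per the labels. Each experiment's table, as deposited by the authors, gives unnormalized counts and, in further columns, RPKM and gene length. The submitters' processing notes name bcl2fastq 2.20, STAR 2.7.3a and the builds GRCm38 and mm10. The counting tool and the treatment of reads with several positions are not given in the sources used here, so counts of genes with nuclear copies are uncertain. The RPKM values of the authors' deposited tables were used only to compare levels between genes. Positions come from a RefSeq table of GRCm38.p6.

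The tests used the quasi-likelihood method of edgeR 4.0.16 (R 4.3.3) with TMM scaling and filterByExpr, fitting every group of an experiment together. The filter left 18772 and 19778 genes. SE is the log2 change over the square root of F, and CPM use TMM-adjusted library sizes. Named genes were the 10 members, the other mitochondrial rows and their copies, the targeted genes, the rows most like the members, and the largest changes of the lists. The members and lists were chosen with earlier results of these data known. On simulated counts with 200 genes changed by 1.5 (log2), 200 were recovered for the Trim71-dependent difference in each experiment. Of the calls, 1.96% (18382 genes tested) and 6.54% (19464 genes tested) were false. Smaller changes, such as those of the 10 members in that difference, were not simulated. Recovery at those sizes is therefore not known. Each library was counted as a replicate because dishes were grown in triplicate. Within groups, chi-square per gene over the 42 pairs of libraries lay between 2.87 and 64.1. That spread cannot tell separate dishes from separate handling of a single dish. Counting precision ignores duplicate molecules, since no molecular identifiers are stated. Alternatives covered scaling, filter, samples fitted, DESeq2 1.42.0, replicate blocks and libraries left out. Summing matching rows and comparing IP levels alone were added after seeing the data. Single permutation tests of 3 against 3 libraries cannot go below p = 0.1 and were not used. No sequences are printed.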

Additional observations from a re-analysis of the deposited data

Results flagged for a closer look

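The change of input RNA between tagged and Trim71KO cells differed between the experiments, by a test of the difference in the joint edgeR fit, for 7 of the 10 mRNAs and for ND3 and the pseudogene Gm10925. The experiment 1 value minus the experiment 2 value was -2.30 for ATP8, -1.55 for ND3 (SE 0.26), -1.49 for ND1, -1.29 for ATP6, -1.28 for its pseudogene copy Gm10925, -1.20 for ND2, -0.87 for COX3, -0.84 for COX2 and -0.70 for CYTB, all on the log2 scale. ATP6 and Gm10925 hold nearly the same counts and are not independent. In experiment 1 tagged input lay above Trim71KO input without overlap for 8 of the 10. Trim71KO input lay wholly below tagged input for 24.6% of all genes there and wholly above for 22.6%. In experiment 2 the input libraries of both groups overlapped for each of the 10. There Trim71KO input lay wholly below tagged input for 21.2% of all genes and wholly above for 20.4%.

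The tag-specific difference of ND6 was also lower in experiment 1 than in experiment 2, by -0.80 (SE 0.30, edgeR adjusted p 0.0395), where 0 of the 10 chosen mRNAs were called. Groups of 3 libraries are too small for a test of single outlying libraries, and none was run.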

How the results depend on the processing

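The count of called members stayed within 1.5 times of its reported value in 423 refits and moved further in 38, and 0 called single-gene values changed sign. With the fit limited to the libraries of a comparison, the count was 6 for Trim71KO against tagged IP in experiment 1, and in experiment 2 it was 4 for Trim71KO against tagged input, 3 for Ago2KO against tagged input, 4 for Trim71KO against Ago2KO input, 1 for Ago2KO against tagged IP, and 2 for the tag-specific difference between experiments. DESeq2 gave 1 for Trim71KO against tagged IP in experiment 2, and library size alone gave 1 for Trim71KO against Ago2KO input. Scaling without mitochondrial rows gave 1 for the tag-specific difference between experiments. The cause was not tested.

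Replicate numbers are not shown to pair libraries throughout, since no pair of groups had all 3 same-number correlations over 0.1. By best match the pairs of groups varied. In tagged and Ago2KO input of experiment 2, 6 of 6 libraries correlated best with the library of their own number. In untagged and Trim71KO input of experiment 2, 0 did. A replicate block within fraction gave 4 for Trim71KO against tagged IP in experiment 2, 2 for Ago2KO against tagged IP, 1 for the ratios of Trim71KO against Ago2KO and 1 for the tag-specific difference between experiments, and a block within genotype gave 1 for the last. Other counts stayed within 1.5 times under the block.

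With each library left out in turn, counts ran from 0 to 1 for the Trim71-dependent difference in experiment 1, 5 to 9 for the tag-specific difference in experiment 2, 0 to 2 for that difference between experiments, 0 to 1 for Trim71KO against tagged input and 1 to 3 for Trim71KO against Ago2KO input in experiment 2, 0 to 4 for Trim71KO against tagged IP and 0 to 1 for Ago2KO against tagged IP in experiment 2. Library size alone moved the median of all genes for IP against input by -0.39 in untagged cells of experiment 1, where ND1 and ND2 were then called lower, by -0.36 in tagged cells of experiment 1, where ND2 was then called, by -0.29 in tagged cells of experiment 2 and by -0.20 for the tag-specific difference in experiment 2. ATP8 rested on 30, 38 and 44 counts in Trim71KO IP of experiment 1.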
